A study of Mus musculus with 28 samples.

Results

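The genes of G2 and mitosis described here are 45 genes that a dividing cell expresses as it prepares for and carries out chromosome segregation, chosen by symbol from a list of genes known for these roles. All 45 were among the 13846 genes listed for embryonic cortex, and 36 were among the 14104 listed for adult prefrontal cortex (PFC). The libraries came from mice with a Myt1l knockout allele, a line made to ask what the loss of MYT1L, a zinc-finger transcription factor of neurons, does to chromatin and to the transcriptome. Total RNA was sequenced from embryonic cortex at E14.5, a stage of neurogenesis, of 6 wild-type (WT), 6 heterozygous (Het) and 4 homozygous (Hom) samples, and from the PFC of 6 WT and 6 Het adults. By label, 5 WT, 3 Het and 3 Hom embryonic libraries were female, and each adult group held 3 females and 3 males. No adult age is given, the allele is not described further in the labels, and no Hom adult was measured. Levels are CPM (counts scaled to a common library total), recovered from the deposited log2 values.

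A cell enters mitosis when CDK1, bound to cyclin B and released from inhibition by CDC25 phosphatases, phosphorylates its targets together with the Aurora and Polo-like kinases. The spindle checkpoint then holds the anaphase-promoting complex (APC/C) in check until every kinetochore is attached, after which sister chromatids separate and the cell divides. In the embryonic cortex the dividing cells of the neural lineage are radial glia at the ventricle and intermediate progenitors above them, whereas neurons have left the cycle. Most of these genes are transcribed late in the cycle, and the promoters of many are bound by the DREAM, B-MYB and FOXM1 complexes and by NF-Y. DREAM and the complexes with B-MYB and FOXM1 act at the cell cycle homology region (CHR), and NF-Y binds the CCAAT box.

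Myt1l itself was lower in the mutants. In E14.5 cortex the WT libraries ran from 45.9 to 66.6 CPM (median 54.4), the Het libraries from 30.6 to 59.5 (median 43.5) and the Hom libraries from 18.1 to 23.3 (median 19.7). Every Hom library lay below every WT and Het library, and Het and WT overlapped. In the PFC the WT libraries ran from 146 to 168 CPM (median 156) and the Het libraries from 105 to 121 (median 116), without overlap. In the E14.5 set 1 library labelled female, Het F10, had 21.6 CPM of the Y-linked gene Ddx3y, and 1 labelled male, Het M11, had 0, so the sex label of that pair goes against the data and results are also given without them. Sequencing depth is unknown, since the deposited values had been scaled and adjusted. Each library carries an identifier of its own, and the labels do not say which libraries share a litter. The p-values measure the spread left between these libraries after that adjustment, and a step that removes variation can make them too small. They treat each library as independent, which a shared litter could undo.

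Promoter sequences were compared first, because promoters of many such genes are known to share these 2 motifs. Windows from 250 bases before to 50 bases after the start site were taken from RefSeq (GRCm38.p6), and 38 of the 45 members matched one. Kif20a, Tpx2, Ccna2, Cdc25c, Aurkb, Incenp and Smc4 had no entry. The letters TTTGAA (the CHR core), or TTCAAA on the other strand, were in the windows of 27 of the 38 members, 71.1%, against 20.2% of all 27025 genes in the table. The letters CCAAT, or ATTGG on the other strand, were in 30 of 38, 78.9%, against 41.1% of all genes, and both were in 25 of 38, 65.8%, against 7.97%. A match is a description, not a binding site.

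6 examples are printed as the bases just upstream of the start, 5′ to 3′ on the gene's strand, with CHR and CCAAT matches in capitals. Aurka (chr2:172370571-172370670 on the minus strand), Cdc25b (chr2:131186848-131186947 on the plus strand) and Ncaph (chr2:127133955-127134054 on the minus strand) were chosen because their level was lower in a mutant at E14.5. Top2a (chr11:99024190-99024289 on the minus strand), Kif11 (chr19:37376282-37376381 on the plus strand) and Ccnb2 (chr9:70421555-70421654 on the minus strand) were chosen because theirs did not pass the test. The 6 examples do not show how often each motif occurs in either set, which is counted after them.
Aurka: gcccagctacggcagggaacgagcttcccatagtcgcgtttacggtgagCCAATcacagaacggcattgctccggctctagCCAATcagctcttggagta
Cdc25b: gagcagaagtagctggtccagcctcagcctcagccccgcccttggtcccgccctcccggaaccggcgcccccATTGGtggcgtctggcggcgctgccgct
Ncaph: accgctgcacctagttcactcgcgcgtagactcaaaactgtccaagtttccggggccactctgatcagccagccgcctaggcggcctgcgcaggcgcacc
Top2a: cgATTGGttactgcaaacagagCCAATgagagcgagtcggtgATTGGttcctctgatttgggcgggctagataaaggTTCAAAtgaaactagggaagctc
Kif11: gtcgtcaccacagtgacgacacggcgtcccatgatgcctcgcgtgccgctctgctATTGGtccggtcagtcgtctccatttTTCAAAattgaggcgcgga
Ccnb2: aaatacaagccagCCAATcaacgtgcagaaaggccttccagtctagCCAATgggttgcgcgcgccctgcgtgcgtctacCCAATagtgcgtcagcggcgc
The stretches of Top2a and Kif11 hold both motifs, and that of Ccnb2 holds 3 CCAAT boxes in a row, with its CHR letters elsewhere in the window. Aurka has 2 CCAAT boxes and its CHR letters lie after the start site, Cdc25b has 1 CCAAT box and no CHR letters, and Ncaph has neither. Among the 9 members that were lower in Het or Hom cortex, 7 matched a window, of which 4 held the CHR letters and 6 CCAAT. Among the 36 that were not, 31 matched, of which 23 held the CHR letters and 24 CCAAT. Aurka, Bub1b, Bub3 and Prc1, which were lower, held both motifs in their windows. Of the lower members with a window, Ncaph alone held neither. Birc5, Mad2l1, Nuf2, Nusap1 and Ube2s, which were not lower, held neither. The motifs were thus present among members that passed the test and among those that did not, and no test of the difference was made.

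In E14.5 cortex, 9 of the 45 members were lower in at least 1 mutant genotype and none was higher. A gene is called lower or higher when its adjusted p was under 0.05 in limma, with genotype and labelled sex in 1 fit over all genes and Benjamini-Hochberg adjustment over all 12429 genes tested. All 45 passed the filter of at least 1 CPM in at least 4 libraries. In Hom against WT, 7 of 45 were lower, where 4.37% of all genes were lower, and 0 were higher, where 3.23% of all genes were. In Het against WT, 8 of 45 were lower against 2.98% of all genes, and 0 were higher against 2.84%. Ccnb1, Cdc25b, Aurka, Bub1b, Kif20a and Prc1 were called in both, Bub3 in Hom alone, and Ncaph and Tpx2 in Het alone. Both comparisons use the same 6 WT libraries, so they are not independent. The members were chosen with earlier results of these data known, so setting them beside all genes is a description, not a test. Differences were modest: the members' median log2 change was -0.11 in Hom, with 36 of 45 below 0, and -0.13 in Het, with 35 of 45 below 0, while the medians over all genes were 0.02 and 0.03. In bulk tissue, fewer dividing cells and less of these RNAs per cell cannot be told apart.

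The counts changed with the libraries used, and apart from Aurka the calls in Hom had limma adjusted p-values from 0.0349 to 0.0496. The count for Hom fell to 1 without WT F04, WT F06, WT F12, Hom F04, Hom F09 or Hom M02, each left out in turn, and to 3 without WT F05. The count for Het fell to 1 without Het F07 and to 2 without Het F02 or WT F04. The libraries' identifiers begin with 14424 or 14526, a prefix whose meaning the labels do not give. Within the 14424 libraries alone (4 WT, 4 Het, 3 Hom), 0 members were called by limma in either comparison, where 68 genes in all were called in Hom and 0 in Het. There, by simple difference of means on the log2(CPM + 0.5) scale, 33 of 45 members were lower in Hom (median -0.05) and 34 in Het (median -0.10). In the 14526 libraries (2 WT, 2 Het, 1 Hom) 35 of 45 were lower in Hom (median -0.24) and 35 in Het (median -0.17). The members whose difference was below 0 in both prefixes numbered 27 for Hom and 30 for Het, with no count over all genes made beside these. Each of the 9 called members was among these in both genotypes. They were called from these same libraries, so this is not an independent check. The authors' adjustment left 2 directions among the 16 libraries with almost no variance, and with these as covariates 1 member was called in Hom and 4 in Het. Calls over all genes fell in both genotypes with these covariates. Without Het F10 and Het M11, 8 members were called in Hom and 11 in Het.

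**Figure D1:**
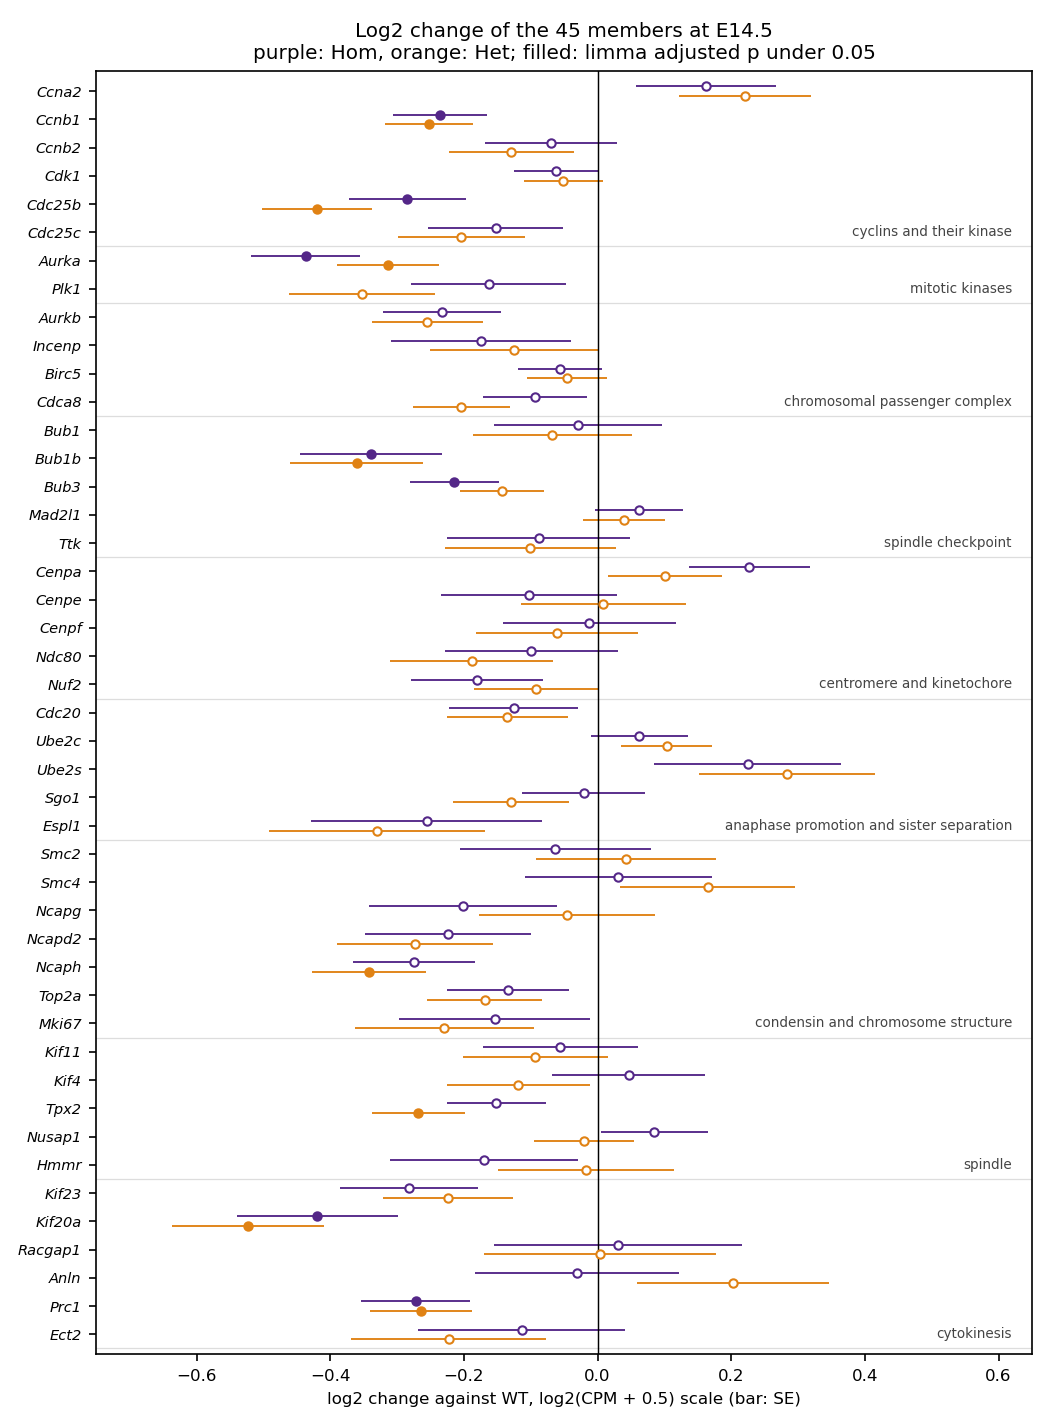
Log2 change against WT of the 45 members at E14.5 on the log2(CPM + 0.5) scale, by role; points are limma estimates, bars are standard errors (SE), purple is Hom, orange is Het, and filled points had an adjusted p under 0.05. Filled points lie only to the left of 0: 7 in Hom and 8 in Het, and the remaining points spread on both sides of 0.

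Per kilobase of exon, so that genes can be compared, the highest WT levels at E14.5 were those of Ccnb1 (107 CPM per kb), Ccnb2 (82.1), Ube2c (77.1), Bub3 (74.5) and Cdk1 (71.7), and the lowest was that of Espl1 (0.805). Mki67, which is widely used to mark dividing cells, had 3.76 CPM per kb.

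Among the cyclins and the kinase they activate, 2 of 6 members were lower in each mutant genotype. Ccnb1 (ENSMUSG00000041431, chr13:100778650-100786570 of GRCm38, minus strand) encodes cyclin B1, the partner of CDK1 at mitotic entry. Its WT libraries ran from 432 to 502 CPM with a median of 447. The Het libraries ran from 340.5 to 419.6 with a median of 386, and the Hom libraries F01, F04, F09 and M02 had 408, 364, 393 and 376 CPM. Every Het and every Hom library lay below every WT library. The means were 453 ± 26.1 (SD, n = 6) in WT, 383 ± 33.6 (SD, n = 6) in Het and 385 ± 19.5 (SD, n = 4) in Hom. On the log2 scale the change was -0.25 in Het (SE 0.07, limma adjusted p = 0.0245) and -0.24 in Hom (SE 0.07, limma adjusted p = 0.0386). Over 30 alternative settings the call held in 24 for Het and 19 for Hom.

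Cdc25b (ENSMUSG00000027330, chr2:131186949-131198497, plus strand) encodes a phosphatase that removes the inhibitory phosphates from CDK1. WT libraries ran from 54.4 to 71.4 CPM (median 61.4) and the Het libraries from 42.6 to 60.1 (median 48.3). The Hom libraries F01, F04, F09 and M02 had 56.1, 45.5, 53.2 and 54.4 CPM. Most mutant libraries lay at the low end of the WT range or under it, with overlap in both genotypes. Means were 63.0 ± 6.33 (SD, n = 6) in WT, 49.9 ± 7.06 (SD, n = 6) in Het and 52.3 ± 4.66 (SD, n = 4) in Hom. Limma estimated a log2 change of -0.42 in Het (SE 0.08, limma adjusted p = 0.00645), which held in 29 of 30 settings, and -0.28 in Hom (SE 0.09, limma adjusted p = 0.0462), which held in 13. With the identifier prefix as a block, the limma adjusted p in Hom was 0.0612.

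Cdk1 (ENSMUSG00000019942, chr10:69335146-69352938, minus strand), the kinase itself, did not pass the test. In WT the libraries ran from 326 to 372 CPM (median 359), the Het libraries from 328 to 348 (median 339.8), and the Hom libraries had 359, 358, 319.6 and 316. All 3 ranges overlapped, and the log2 changes were -0.06 in Hom (SE 0.06, limma adjusted p = 0.587) and -0.05 in Het (SE 0.06, limma adjusted p = 0.658). Ccna2, the cyclin A of somatic cells, was the member of this group with estimates above 0, at 0.16 in Hom and 0.22 in Het, neither past the test. Ccnb2 (cyclin B2) and Cdc25c, a further CDC25 phosphatase, had estimates from -0.20 to -0.07, not past the test.

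Of the mitotic kinases, Aurka had the lowest adjusted p of all members in Hom against WT. Aurka (ENSMUSG00000027496, chr2:172356190-172370535, minus strand) encodes Aurora A, which acts at centrosomes and spindle poles. Its WT libraries ran from 141 to 174 CPM (median 149) and the Het libraries from 111 to 139 (median 124). The Hom libraries F01, F04, F09 and M02 had 129.7, 111, 115 and 102 CPM. As for Ccnb1, every mutant library was below every WT library. Means were 155 ± 13.0 (SD, n = 6) in WT, 124 ± 9.53 (SD, n = 6) in Het and 114 ± 11.5 (SD, n = 4) in Hom. The fitted log2 change was -0.44 in Hom (SE 0.08, limma adjusted p = 0.00295), held in 29 of 30 settings, and -0.31 in Het (SE 0.08, limma adjusted p = 0.017), held in 25.

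Plk1 (ENSMUSG00000030867, chr7:122159439-122169873, plus strand), the Polo-like kinase of mitotic entry and spindle assembly, came close to the threshold in Het. The WT libraries ran from 30.4 to 44.2 CPM (median 36.4), the Het libraries from 25.0 to 34.7 (median 30.2), and the Hom libraries had 39.4, 28.4, 32.2 and 33.1. The groups overlapped. On the log2 scale the change was -0.35 in Het (SE 0.11, limma adjusted p = 0.0546) and -0.16 in Hom (SE 0.12, limma adjusted p = 0.425).

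The chromosomal passenger complex carries Aurora B to centromeres and then to the midzone, and 0 of its 4 members were called, although all 4 estimates were below 0 in both genotypes. Aurkb, the kinase, had its lowest WT library at 100.2 CPM and every Het library below that, up to 97.1. Such a separation was found for 1.33% of all genes tested. The log2 change of Aurkb of -0.25 in Het (SE 0.08) had a limma adjusted p of 0.068. Birc5 (survivin; ENSMUSG00000017716, chr11:117849251-117855743, plus strand) was nearly level. It ran from 197 to 222 CPM in WT (median 214), from 192 to 215 in Het (median 203), and had 217, 212, 201 and 186 in Hom. The log2 changes of Birc5 were -0.06 in Hom (SE 0.06, limma adjusted p = 0.634) and -0.05 in Het (SE 0.06, limma adjusted p = 0.697). Incenp, the scaffold, and Cdca8 (borealin) lay between -0.20 and -0.09 and did not pass the test.

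Of 5 spindle checkpoint genes, 2 were lower in Hom and 1 in Het. Bub1b (ENSMUSG00000040084, chr2:118598211-118641591, plus strand) encodes BUBR1, a subunit of the mitotic checkpoint complex that inhibits the APC/C. WT libraries ran from 102 to 129.6 CPM (median 117), the Het libraries from 73.0 to 124 (median 91.9), and the Hom libraries F01, F04, F09 and M02 had 94.1, 77.7, 95.0 and 106. Het M11 and Hom M02 lay inside the WT range, as did 1 more Het library, F10. Means were 117 ± 9.19 (SD, n = 6) in WT, 95.1 ± 17.8 (SD, n = 6) in Het and 93.2 ± 11.6 (SD, n = 4) in Hom. Limma estimated a log2 change of -0.36 in Het (SE 0.10, limma adjusted p = 0.034), held in 16 of 30 settings, and -0.34 in Hom (SE 0.11, limma adjusted p = 0.0496), held in 11. The prefix block gave a limma adjusted p of 0.056 in Hom.

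Bub3 (ENSMUSG00000066979, chr7:131560222-131571895, plus strand) encodes the partner that brings BUB1 and BUBR1 to kinetochores. WT libraries ran from 494 to 548 CPM (median 520.5), Het libraries from 419 to 500.2 (median 487), and the Hom libraries had 488, 458, 417 and 437. Every Hom library was below every WT library, and Het overlapped with WT. Means were 522 ± 22.9 (SD, n = 6), 472 ± 34.4 (SD, n = 6) and 450.1 ± 30.5 (SD, n = 4) in WT, Het and Hom. The fitted log2 change was -0.21 in Hom (SE 0.07, limma adjusted p = 0.0494), held in 13 of 30 settings, and -0.14 in Het (SE 0.06, limma adjusted p = 0.174). Under the prefix block the limma adjusted p in Hom was 0.0669.

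Bub1 (ENSMUSG00000027379, chr2:127801122-127831865, minus strand), the checkpoint kinase, ran from 23.8 to 30.9 CPM in WT (median 25.6), from 19.5 to 31.8 in Het (median 28.6), and had 25.4, 22.2, 27.7 and 29.0 in Hom. The 3 ranges overlapped, with log2 changes of -0.03 in Hom (SE 0.13, limma adjusted p = 0.921) and -0.07 in Het (SE 0.12, limma adjusted p = 0.789). Mad2l1 (MAD2, which binds CDC20) and Ttk (the kinase MPS1) lay between -0.10 and 0.06, not past the test.

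Neither the centromere and kinetochore genes nor the genes of sister separation had a called member. Cenpa, the histone H3 variant of centromeres, went the other way from most members: every Hom library, from 80.8 to 90.6 CPM, was above every WT library, from 64.1 to 77.9. Its log2 change of 0.23 in Hom (SE 0.09) had a limma adjusted p of 0.124. Every Hom library lay above every WT library for 4.8% of all genes tested. Cenpf (ENSMUSG00000026605, chr1:189640606-189688086, minus strand), a kinetochore protein that accumulates in G2, ran from 23.9 to 38.3 CPM in WT (median 31.7), from 24.3 to 35.6 in Het (median 30.2), and had 34.8, 24.7, 30.4 and 33.8 in Hom. Its groups overlapped throughout, with log2 changes of -0.01 in Hom (SE 0.13, limma adjusted p = 0.97) and -0.06 in Het (SE 0.12, limma adjusted p = 0.822). Cenpe, a kinetochore motor, and Ndc80 and Nuf2, which bind microtubules as a pair, lay between -0.19 and 0.01.

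Cdc20 (ENSMUSG00000006398, chr4:118432901-118437352, minus strand), the activator of the APC/C, ran from 43.2 to 57.8 CPM in WT (median 51.5), from 40.3 to 54.6 in Het (median 43.7), and had 48.1, 45.6, 48.2 and 41.3 in Hom. Most mutant libraries were in the lower part of the WT range or under it, and the log2 changes were -0.13 in Hom (SE 0.10, limma adjusted p = 0.465) and -0.13 in Het (SE 0.09, limma adjusted p = 0.403). Ube2c and Ube2s, the enzymes that start and extend ubiquitin chains for the APC/C, had estimates above 0 in both genotypes, from 0.06 to 0.28. Espl1 (separase) had -0.26 in Hom and -0.33 in Het, and Sgo1 (shugoshin, which protects centromeric cohesion) -0.02 and -0.13. None of these 4 passed the test.

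Of the 7 genes of condensin and chromosome structure, 1 was lower, in Het. Ncaph (ENSMUSG00000034906, chr2:127103809-127133954, minus strand) encodes the kleisin subunit of condensin I. In WT the libraries ran from 105 to 138 CPM (median 119), the Het libraries from 84.2 to 119.7 (median 94.9), and the Hom libraries had 105, 87.6, 101 and 107. Apart from Het M11, all Het libraries were below the lowest WT library. Means were 121 ± 11.2 (SD, n = 6), 97.7 ± 12.7 (SD, n = 6) and 100.4 ± 8.81 (SD, n = 4) in WT, Het and Hom. On the log2 scale the change was -0.34 in Het (SE 0.09, limma adjusted p = 0.0201), held in 25 of 30 settings, and -0.27 in Hom (SE 0.09, limma adjusted p = 0.0636).

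Smc2 (ENSMUSG00000028312, chr4:52439243-52488260, plus strand), an ATPase subunit shared by both condensins, did not follow. It ran from 38.3 to 58.4 CPM in WT (median 47.8), from 39.8 to 60.1 in Het (median 48.1), and had 55.9, 54.3, 33.6 and 42.9 in Hom. With log2 changes of -0.06 in Hom (SE 0.14, limma adjusted p = 0.836) and 0.04 in Het (SE 0.13, limma adjusted p = 0.893), its groups overlapped throughout. Smc4, its ATPase partner, had 0.03 and 0.17, and Ncapg and Ncapd2, subunits of condensin I, lay between -0.27 and -0.05, none past the test.

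Top2a (ENSMUSG00000020914, chr11:98992943-99024189, minus strand) encodes the topoisomerase that untangles sister chromatids. It ran from 245 to 308 CPM in WT (median 255), from 201 to 263 in Het (median 237), and had 288, 217, 241 and 217 in Hom. Hom F01 was above the WT median and the other Hom libraries were below the WT range. The log2 changes were -0.13 in Hom (SE 0.09, limma adjusted p = 0.397) and -0.17 in Het (SE 0.09, limma adjusted p = 0.245). Mki67 (ENSMUSG00000031004, chr7:135689784-135716361, minus strand), which encodes the proliferation marker Ki-67, ran from 27.3 to 44.5 CPM in WT (median 39.2), from 26.1 to 40.5 in Het (median 31.3), and had 42.6, 33.2, 26.3 and 33.5 in Hom. Its groups overlapped, with log2 changes of -0.15 in Hom (SE 0.14, limma adjusted p = 0.556) and -0.23 in Het (SE 0.13, limma adjusted p = 0.324).

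Of the 5 spindle genes, 1 was lower, in Het. Tpx2 (ENSMUSG00000027469, chr2:152847964-152895321, plus strand) encodes the protein that activates Aurora A on spindle microtubules. Its WT libraries ran from 132 to 156 CPM (median 142), the Het libraries from 107 to 135 (median 115), and the Hom libraries had 129, 125, 137 and 123. Het M11 alone of the Het libraries reached into the WT range. Means were 143 ± 7.56 (SD, n = 6), 119 ± 10.5 (SD, n = 6) and 129 ± 6.30 (SD, n = 4) in WT, Het and Hom. Limma estimated a log2 change of -0.27 in Het (SE 0.07, limma adjusted p = 0.0242), held in 23 of 30 settings, and -0.15 in Hom (SE 0.07, limma adjusted p = 0.218).

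Kif11 (ENSMUSG00000012443, chr19:37376403-37421859, plus strand), the kinesin that pushes spindle poles apart, ran from 25.8 to 34.5 CPM in WT (median 30.6), from 21.7 to 34.0 in Het (median 30.4), and had 34.1, 26.4, 27.1 and 29.7 in Hom. Its groups overlapped, with log2 changes of -0.06 in Hom (SE 0.12, limma adjusted p = 0.819) and -0.09 in Het (SE 0.11, limma adjusted p = 0.663). Kif4 (a chromokinesin), Nusap1 and Hmmr (microtubule-binding proteins of the spindle) lay between -0.17 and 0.08, not past the test.

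Of the 6 cytokinesis genes, 2 were lower in each genotype. Kif20a (ENSMUSG00000003779, chr18:34624613-34633277, plus strand) encodes a kinesin of the central spindle. WT libraries ran from 95.6 to 128 CPM (median 103), the Het libraries from 57.2 to 98.4 (median 74.9), and the Hom libraries F01, F04, F09 and M02 had 87.8, 65.6, 82.4 and 83.4. Every Hom library was below every WT library, and of the Het libraries F10 alone reached the WT range. Means were 106 ± 11.2 (SD, n = 6), 76.0 ± 14.9 (SD, n = 6) and 79.8 ± 9.78 (SD, n = 4) in WT, Het and Hom. The fitted log2 change was -0.52 in Het (SE 0.11, limma adjusted p = 0.01), held in 27 of 30 settings, and -0.42 in Hom (SE 0.12, limma adjusted p = 0.0349), held in 19.

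Prc1 (ENSMUSG00000038943, chr7:80294450-80316259, plus strand) encodes the protein that bundles the antiparallel microtubules of the midzone. In WT the libraries ran from 120.5 to 142 CPM (median 129), the Het libraries from 97.1 to 124 (median 109), and the Hom libraries had 121, 97.7, 108 and 102. The top library of each mutant genotype, Het M11 and Hom F01, reached the WT range. Means were 129 ± 7.72 (SD, n = 6), 109 ± 10.6 (SD, n = 6) and 107 ± 10.3 (SD, n = 4) in WT, Het and Hom. On the log2 scale the change was -0.26 in Het (SE 0.08, limma adjusted p = 0.0422), held in 17 of 30 settings, and -0.27 in Hom (SE 0.08, limma adjusted p = 0.0409), held in 19. In Het the prefix block gave a limma adjusted p of 0.0504. Kif23 and Racgap1, which form centralspindlin, had estimates from -0.28 to 0.03. Anln (anillin) and Ect2, the activator of RhoA at the cleavage site, had estimates from -0.22 to 0.20. None of these 4 passed the test.

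**Figure D2:**
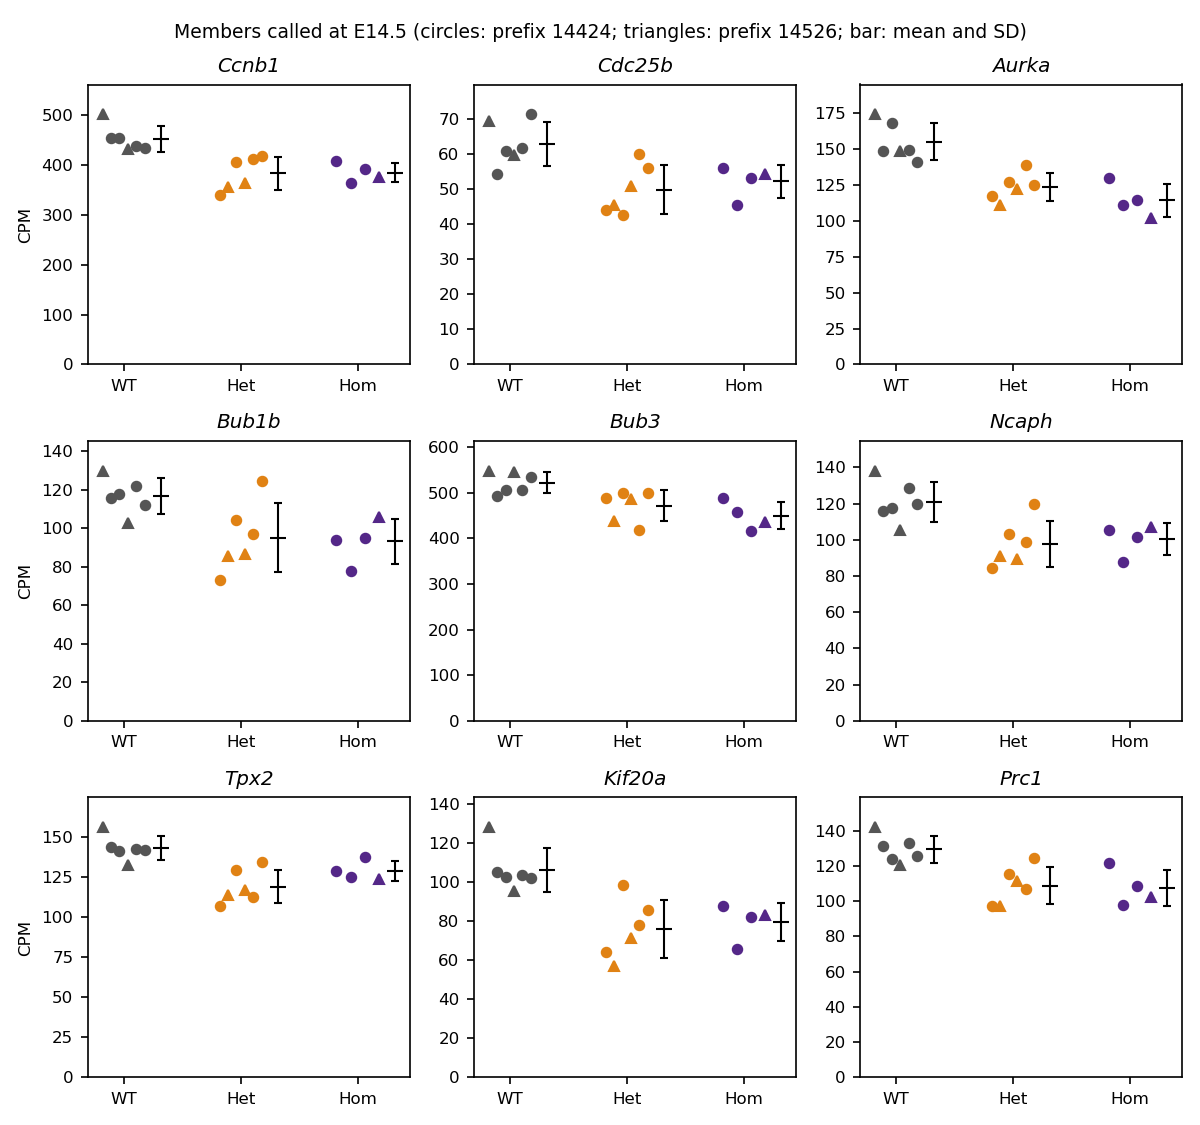
CPM of the 9 members called at E14.5 in Het or Hom, by genotype; each point is a library (6 WT, 6 Het, 4 Hom), circles have the identifier prefix 14424 and triangles 14526, and the bar at the right of each group is mean and SD. For Ccnb1 and Aurka every mutant point lies below every WT point, and WT F04 (the leftmost grey triangle) is the highest WT library of 8 of the 9 genes.

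Counted by overlap alone, every Hom library was below every WT library for 4 of 45 members (Ccnb1, Aurka, Bub3 and Kif20a), where 5.11% of all genes tested did so. It was above every WT library for 1 member, Cenpa, where 4.8% of all genes did so. Every Het library was below every WT library for 3 members (Ccnb1, Aurka and Aurkb), where 1.33% of all genes did so.

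No member differed between Hom and Het past the test. In Hom against Het 0 of 45 members were called by limma, where 0.00805% of all genes were called, and 0 of 45 had an unadjusted p under 0.05, where 5.12% of all genes did. Estimates ran from -0.23 (Anln) to 0.19 (Plk1), with SE from 0.06 to 0.19. Such p-values do not show that the genotypes act alike.

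Summed over the 45 members, the level was 4477 ± 182 CPM (SD, n = 6) in WT, 4056 ± 263 (SD, n = 6) in Het and 4070 ± 223 (SD, n = 4) in Hom. WT libraries ran from 4304 to 4786, Het libraries from 3747 to 4453, and the Hom libraries F01, F04, F09 and M02 had 4391, 3897, 4047 and 3945. Abundant members weigh most in this sum, such as the called members Bub3 and Ccnb1 (WT means 522 and 453 CPM). The sum is therefore not independent of the calls. Single libraries leaned one way over many members at a time. WT F04 was the highest WT library for 17 members, Hom F01 the highest Hom library for 29, and Het M11 the highest Het library for 22. Hom F01 was below the WT mean for 20 of 45 members, against 33 to 36 for the other Hom libraries, and Het M11 for 23, against 29 to 39 for the other Het libraries.

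**Figure D3:**
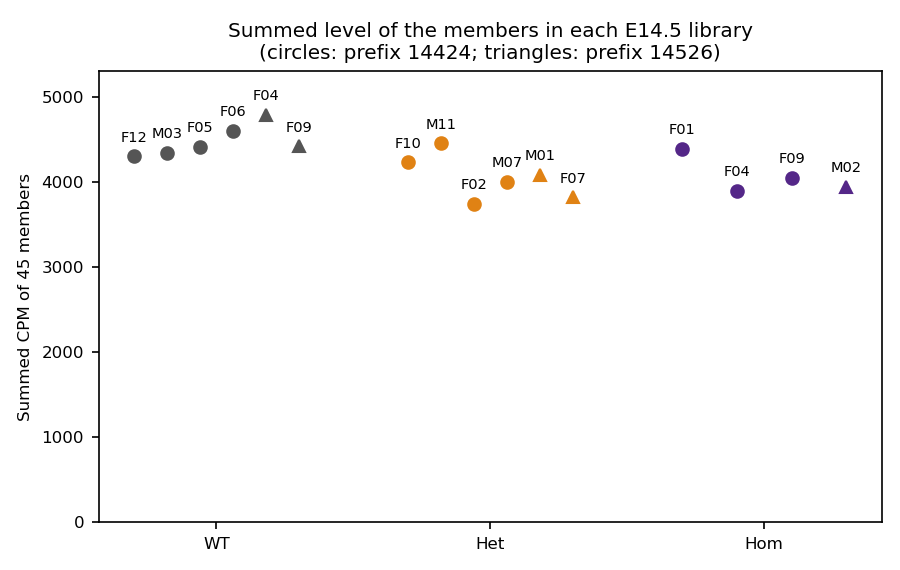
Summed CPM of the 45 members in each E14.5 library (points, labelled by replicate; circles: prefix 14424; triangles: prefix 14526; the axis starts at 0). WT libraries lie between 4304 and 4786, and Hom F01 at 4391 and Het M11 at 4453 lie inside that range while the other mutant libraries lie below it.

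Marker levels of cell types varied beside these values. The summed level of 8 intermediate progenitor markers was lower in every mutant library, at 1009 to 1099 CPM in WT, 908 to 992 in Het and 938 to 993 in Hom. The markers went both ways one by one: 5 of 8 had estimates below 0 in Hom (median log2 change -0.12) and 4 of 8 in Het (median -0.03), and limma called 1 lower in Hom (Mfap4) and 1 higher in Het (Neurog2). The sum of 10 radial glia markers ran from 1633 to 2023 CPM in WT, 1775 to 2263 in Het and 1797 to 2134 in Hom, and that of 10 neuronal markers from 7591 to 8767, 7014 to 8576 and 6918 to 8109. Of 9 radial glia markers tested, Sox2 was called higher and Prom1 lower in Hom, and 0 were called in Het. Of the 10 neuronal markers, 9 had estimates above 0 in each mutant genotype, with median log2 changes of 0.19 in Hom and 0.24 in Het. Tubb3 was lower in both, Tbr1 was higher in both, Nefm was higher in Hom and Neurod6 in Het. Of 10 markers of the ventral telencephalon, 8 were listed (not Gsx2 or Nkx2-1), and their sum ran from 32.8 to 58.4 CPM in WT, 40.3 to 91.8 in Het and 47.4 to 121 in Hom, with Dlx1, Sp9 and Ppp1r1b called higher in Hom and 0 called in Het. Isl1, one of these, was above 10 CPM in Hom F01, Hom M02 and Het M07, and without these 3 libraries 1 member was called in Hom and 9 in Het. The sum of 6 choroid plexus markers ran from 1408 to 3999 CPM in WT, 3008 to 5222 in Het and 1597 to 2894 in Hom. Of 6 endothelial markers, 5 had estimates below 0 in Hom (median log2 change -0.57) and 4 in Het (median -0.28). Limma called 0 of them in either genotype, with a lowest adjusted p of 0.0565 in Hom. Of the erythroid, meningeal and microglial markers, only the meningeal Ogn was called, higher in Het. No listed marker of these types was at 0 in all libraries of a group. Their part in the members' differences was not tested.

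Other genes of the cycle were counted from lists beside the 45 members, against the same shares of all genes (4.37% lower and 3.23% higher in Hom, 2.98% and 2.84% in Het). Of 70 other mitosis genes tested, 5 were lower in Hom (Cenpo, Kif2c, Cit, Mad1l1 and Spag5) and 8 in Het, with 0 higher, and medians of -0.05 and -0.09. Cenpo, a centromere protein, had log2 changes of -0.53 in Hom (SE 0.12, limma adjusted p = 0.0109) and -0.47 in Het (SE 0.11, limma adjusted p = 0.0178). Cit, the citron kinase of the midbody, had -0.43 in Hom (SE 0.12, limma adjusted p = 0.0232) and -0.60 in Het (SE 0.11, limma adjusted p = 0.0039). Of 28 genes of the APC/C and cohesin, 1 was lower in Hom (Cdc23) and 2 were higher in Het (Cdc16 and Anapc10), all 3 subunits of the APC/C. Of 23 regulators of G2 and mitosis promoters, 1 was called: Rb1, the retinoblastoma gene, was higher in Hom with a log2 change of 0.57 (SE 0.14, limma adjusted p = 0.0161). Of 36 S phase genes, 7 were lower in Hom and 6 in Het, and 0 were higher. The single calls among the APC/C, cohesin and regulator genes in Hom are near the shares over all genes, and no list was tested against the members. These lists, too, were chosen with earlier results of these data known.

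In the adult PFC most of these genes were listed at low levels or not at all. Mki67, Aurkb, Bub1, Bub1b, Ttk, Ncapg, Ndc80, Ect2 and Sgo1 were not listed. Of the 36 listed, 15 had a WT mean under 1 CPM, 16 had 1 to under 10, and 5 had at least 10: Bub3, Ube2s, Mad2l1, Racgap1 and Incenp. The median WT level of the listed members was 1.26 CPM, where the median of the 45 in WT E14.5 cortex was 50.4 CPM. All 10 neuronal markers and all 6 oligodendrocyte markers were listed in the PFC table. So were all 10 radial glia markers and 6 of 8 intermediate progenitor markers, so being listed does not tell cell types apart. The tables were normalized separately and the tissues were not tested against each other. Ccnb1 had 453 ± 26.1 CPM (SD, n = 6) in E14.5 WT and 4.84 ± 1.34 (SD, n = 6) in PFC WT, and Cdk1 had 354 ± 19.0 and 0.507 ± 0.270. Bub3 had 161 ± 9.64 CPM (SD, n = 6) in PFC WT. Ube2s was the only member listed higher in the adult table, at 27.7 ± 1.89 CPM (SD, n = 6) against 8.41 ± 0.723 (SD, n = 6) in E14.5 WT.

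**Figure D4:**
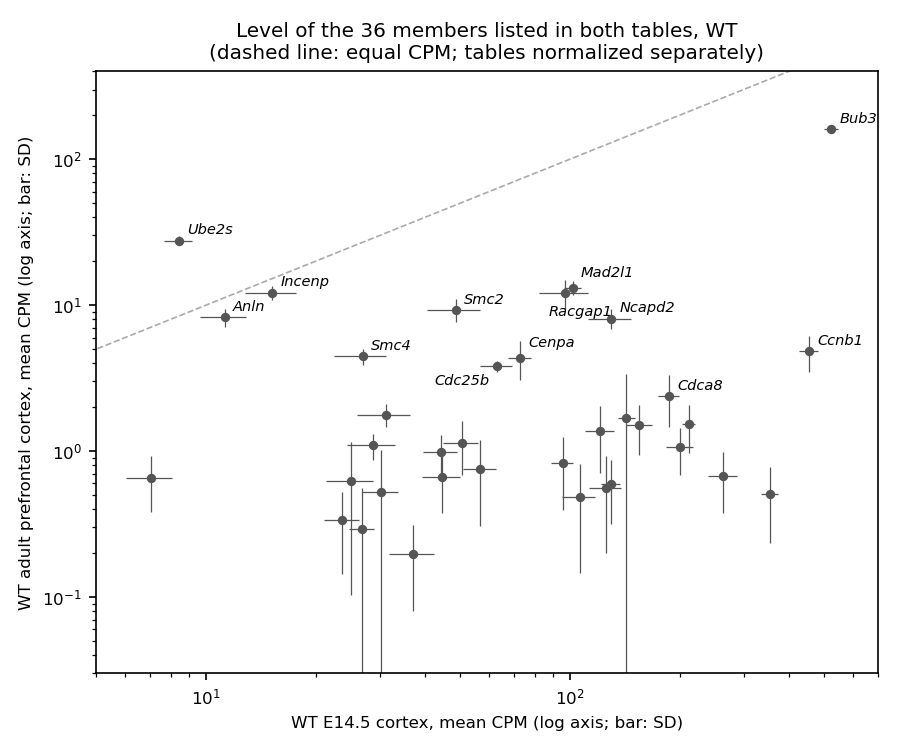
Mean CPM in WT of the 36 members listed in both tables, E14.5 cortex against adult PFC; both axes are log scales, bars are SD over 6 libraries (some run off the lower edge), and names mark members above 2 CPM in the PFC. All members but Ube2s lie under the dashed line of equal CPM, most of them far under it.

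Only 22 of the 45 members passed the PFC filter of at least 1 CPM in at least 6 libraries, and 1 of these 22 was called, where 0.404% of the 12870 genes tested were called in either direction. Ube2s was lower in Het. Its WT libraries ran from 25.2 to 30.8 CPM (median 27.7) and the Het libraries from 13.9 to 25.1 (median 20.1), without overlap. The mean in Het was 19.4 ± 4.85 CPM (SD, n = 6), for a log2 change of -0.54 (SE 0.11, limma adjusted p = 0.033). The 3 Het libraries labelled female, F02, F04 and F07, had 14.1, 13.9 and 17.7 CPM. The 3 labelled male, M05, M08 and M09, had 23.3, 22.5 and 25.1. Het F02, F04, F07 and M09 carry the identifier prefix 14309, and Het M05 and M08 carry 14308, so sex and prefix partly coincide. In WT, F04, F06 and F10 had 28.0, 26.4 and 30.8 CPM, and M03, M07 and M11 had 27.5, 25.2 and 28.4. The difference between the sexes was not tested. The call held in 13 of 23 settings, and it was lost when WT F04, WT F06, WT F10, WT M11, Het F02, Het F04 or Het F07 was left out, which gave 0 called members each. With the identifier prefix as a block its adjusted p in limma was 0.075, without the sex covariate 0.119, and without trend and robust 0.173. In E14.5 cortex Ube2s had estimates of 0.22 in Hom and 0.28 in Het, neither past the test.

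By overlap, every Het library of the PFC was below every WT library for 1 of the 22 members (Ube2s), where 0.319% of all genes did so, and above for 1 (Mad2l1), where 0.35% did so. Mad2l1 ran from 10.5 to 14.4 CPM in WT (median 13.9) and from 14.9 to 18.6 in Het (median 16.3), with a log2 change of 0.33 (SE 0.10, limma adjusted p = 0.134). Bub3 was level, with a log2 change of -0.01 (SE 0.05, limma adjusted p = 0.975). Of the other lists, 0 of 35 mitosis genes, 0 of 26 genes of the APC/C and cohesin, 0 of 17 promoter regulators and 0 of 31 S phase genes tested in the PFC were called by limma. At an unadjusted p under 0.05, these lists held 4, 6, 2 and 4 genes, where 13.6% of all genes tested did so.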

How the data were processed

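Per the labels' protocols, a Zymo kit gave the RNA and a SMARTer Ultra Low kit the libraries. The tools named in the submitters' processing notes are HTSeq, STAR, Bowtie2 and Trimmomatic, with build mm10; their settings and the strand of counting are not given in the sources at hand. The authors deposited 1 table per tissue of log2 CPM values after RUVr, a step that removes unwanted variation. They invert to whole steps (prior count 2; 100% within 0.01). A step of 1 equals 0.0339 CPM (E14.5) or 0.0489 CPM (PFC). These scaled, adjusted values are not raw counts. Their totals ran from 27827467 to 30811856 (E14.5) and from 19601294 to 21275162 (PFC).

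From these, log2(CPM + 0.5) was tested by limma 3.58.1 (R 4.3.3; eBayes used the trend and robust options), with genotype and labelled sex as covariates and all libraries of a tissue in 1 fit. The filter kept genes that reached 1 CPM in 4 or more E14.5 or 6 or more PFC libraries, and adjusted p-values are Benjamini-Hochberg over all of them. Fold changes on this scale understate the change of low genes. Gene positions came from GENCODE vM21 (GRCm38) and promoters from RefSeq (GRCm38.p6). Members, roles, lists and the rule for named genes (called members and 12 fixed examples in full) were chosen with earlier results of these data known.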

Additional observations from a re-analysis of the deposited data

Results flagged for a closer look

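In 179 groups of 4 or 6 libraries (a member in a genotype and tissue), 10 held 1 library set apart from the others by Dixon's test at its 95% critical value, and chance gives about 1 in 20. In E14.5 cortex, WT F04 stood high for Ccnb1 (502 CPM), Aurkb (131.1 CPM) and Kif20a (128.1 CPM). WT F12 stood low for Cenpe (17.51 CPM), WT F05 high for Kif23 (54.79 CPM), Het M07 low for Ndc80 (15.12 CPM) and Hom F01 high for Nusap1 (114.9 CPM). In the PFC, WT M11 stood low for Ube2c (0.3434 CPM), WT M03 low for Ncapd2 (5.696 CPM) and WT F04 high for Tpx2 (5.089 CPM).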

How the results depend on the processing

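The 7 members called in Hom and the 8 called in Het became 1 and 1 with limma's eBayes without trend and robust, and 1 and 4 with the near-empty directions left by RUVr as covariates. They became 0 and 0 among the 14424 libraries alone, where the members' median in Hom was -0.0484. For Hom, 4 members were called with no filter, 4 after correction for GC content and length, 4 with the identifier prefix as a replicate block, and 1 without the 3 libraries high in Isl1, a setting chosen after seeing the data. With the same replicate block 7 were called in Het, and 0 in the PFC. Leaving out 1 library at a time gave 1 to 8 members in Hom and 1 to 11 in Het. The libraries whose loss lowered these counts most are named beside the results. In the PFC the 1 called member, Ube2s, became 0 with eBayes without trend and robust and 0 with no sex covariate, and 0 to 1 when 1 library was left out. No paired analysis was possible because the labels give no replicate numbers that pair the genotypes, so the prefix served as the block. In the comparisons in which a member was called (E14.5 mutants against WT, and Ube2s in the PFC), its estimate kept its sign under every setting run. Each setting reused the same libraries or most of them, so a kept sign is not an independent check. The members' medians ran from -0.161 to -0.0484 in Hom and from -0.185 to -0.0959 in Het. Each fit tested the table after the authors' adjustment, whose effect on the spread cannot be undone, and depth is unknown.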
